A study of Mus musculus with 18 samples.

Results

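The genes described here are those of oxytocin, vasopressin and their hypothalamic setting. They are the precursors of oxytocin (Oxt), vasopressin (Avp) and thyrotropin-releasing hormone (Trh), the receptors Oxtr and Avpr1a, and the transcription factors Sim1 and Fezf1. They were chosen by symbol and matched to the gene identifiers of the count table, which found 7 of 7 among 55401 identifiers. Messenger RNA was sequenced from the BNST (bed nucleus of the stria terminalis), a limbic forebrain nucleus beside the lateral ventricle, and from the prelimbic medial prefrontal cortex (mPFC) of male wild-type C57BL/6 mice aged 6 to 8 weeks. Formalin mice had received 10 μL of 1% formalin in saline into the sole of a hind paw 24 h before collection, CFA mice 10 μL of 50% complete Freund's adjuvant in saline 72 h before it, and control mice neither agent. The methods of the study say only that control mice received neither injection, while its figure legends call them sham. Each of the 6 groups held 3 libraries from separate brains, and since both agent and collection time set formalin apart from CFA, their parts cannot be told apart.

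Oxytocin and vasopressin are sister peptides of a duplicated gene pair, made mainly by large neurons of the paraventricular and supraoptic nuclei of the hypothalamus. They are cut from longer precursors together with the carrier protein neurophysin and act on receptors that signal through the G protein Gq. In male rodents vasopressin is also made by neurons of the BNST itself, and oxytocin receptors of the BNST are studied in anxiety and social behaviour. Sim1 is a transcription factor that paraventricular and supraoptic neurons need to form, Fezf1 is a zinc-finger factor of the developing forebrain that is also found in the ventromedial hypothalamus, and thyrotropin-releasing hormone is the peptide by which the hypothalamus drives the pituitary-thyroid axis.

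The coding stretches of the hormones are shown because the sister genes are so alike that reads of one could be taken for the other. Both hormones are 9 residues long, read from codons 20 to 28 of the Oxt and codons 24 to 32 of the Avp coding sequence in the GENCODE M21 transcripts of GRCm38. Capitals mark the 5 of 27 bases that differ, which leave 2 of 9 codons with another residue. The Trh precursor holds 5 copies of its peptide between pairs of basic residues, starting at codons 77 to 203, and the first copy is given with the codons of the peptide and its amide donor in capitals.
Oxt hormone stretch: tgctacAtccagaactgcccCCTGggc
Avp hormone stretch: tgctacTtccagaactgcccAAGAggc
Trh first peptide copy: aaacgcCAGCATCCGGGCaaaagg
Over 125 aligned residues, 94 (75.2%) were identical between the Oxt and Avp precursors. The receptors Oxtr and Avpr1a were identical at 204 of 379 aligned residues (53.8%). Whether reads of the shared stretches were set aside or given to one gene is not given in the sources used here.

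In GRCm38, Oxt (ENSMUSG00000027301.7, chr2:130576173-130577054, plus strand) and Avp (ENSMUSG00000037727.6, chr2:130580620-130582554, minus strand) face each other tail to tail, with 3565 bases between them. Trh (ENSMUSG00000005892.4, chr6:92242061-92244650), Oxtr (ENSMUSG00000049112.9, chr6:112473683-112489943) and Fezf1 (ENSMUSG00000029697.6, chr6:23245044-23248362) lie on the minus strand of chromosome 6. Avpr1a (ENSMUSG00000020123.6, chr10:122448499-122453452) and Sim1 (ENSMUSG00000019913.4, chr10:50894754-50989152) lie on the plus strand of chromosome 10. Avpr1a was the only member that overlapped another annotated gene, Gm48877, which had at most 1 count in any library.

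The promoters of Oxt and Avp are shown because these neighbours had the widest spread between libraries of all members. They are the RefSeq windows of GRCm38.p6 with 250 bases before the start and 50 after it, at chr2:130575919-130576218 on the plus strand for Oxt and at chr2:130582539-130582838 on the minus strand for Avp. Capitals mark TGACC on either strand (GGTCA where it is read from the other strand), the core element of several nuclear receptors.
Oxt promoter: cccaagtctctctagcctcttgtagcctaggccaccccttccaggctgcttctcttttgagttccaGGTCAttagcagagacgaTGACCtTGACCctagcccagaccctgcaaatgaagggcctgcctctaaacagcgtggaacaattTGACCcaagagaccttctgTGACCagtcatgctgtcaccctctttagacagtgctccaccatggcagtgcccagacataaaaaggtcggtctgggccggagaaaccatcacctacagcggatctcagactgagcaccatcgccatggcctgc
Avp promoter: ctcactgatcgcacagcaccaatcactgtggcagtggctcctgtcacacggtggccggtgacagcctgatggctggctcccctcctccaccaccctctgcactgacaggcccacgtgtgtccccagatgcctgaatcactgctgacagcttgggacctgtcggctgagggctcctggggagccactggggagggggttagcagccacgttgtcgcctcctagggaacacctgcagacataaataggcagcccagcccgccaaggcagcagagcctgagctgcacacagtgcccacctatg
The Oxt window held 5 copies of TGACC, at −184, −166, −160, −102 and −83 from the start, whereas the Avp window held 0, the Oxtr window 2 and the Trh window 1. Of 32851 promoter windows of the same length, 40.5% held at least 1 copy and 0.09% at least 5. Both windows held CATAAA, a form of the TATA element, which 11.9% of all windows hold on either strand. CACGTG, an E-box, was found in the windows of Avp and Oxtr and in 7.2% of all windows, whereas TGACGTCA, the cAMP response element, was found in 0 of the 7 members' windows and in 1.8% of all windows. No binding was measured, and these matches describe letters only.

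The libraries held 14781315 to 23408503 counts. Levels are given as CPM, the counts of a gene scaled by library size with TMM factors, and 3 counts correspond to 0.128 to 0.206 CPM. All 7 members were among the 18994 genes that passed the filter on low counts. Defining markers of the labelled tissues were present. The 8 markers of BNST and GABAergic neurons summed to 1260 to 2160 CPM in the BNST and to 509 to 614 CPM in the mPFC, and 6 of 6 cortical pyramidal markers were lower in the BNST of control mice. The BNST libraries differed between treatments in marker genes of neighbouring tissue. Control replicate 3 had the lowest thalamic sum. The CFA libraries had higher habenular and lower striatal sums than the others, and the formalin libraries had higher choroid plexus and ependymal sums than control. The values are given below with the results they move with. Called genes had a log2 fold change beyond 0.5 in either direction and a Benjamini-Hochberg adjusted p below 0.05 in edgeR's quasi-likelihood test. The SE beside a log2 fold change of the main fit is its absolute value over the square root of the test's F. That fit shares its estimate of spread over all 6 groups of 3 libraries. Log2 fold changes under alternatives are given without an SE.

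In the BNST, the precursors Oxt, Avp and Trh and the transcription factors Sim1 and Fezf1 were lower after formalin than after CFA, and the receptors Oxtr and Avpr1a were not called. These 5 of 7 members were called lower in formalin minus CFA, against 2.96% of all genes tested, and 0 were called higher, against 3.91%. The 5 calls cannot be counted as independent, since they rest on the same libraries. The levels of these members correlated over the 9 BNST libraries (r of 0.72 for Oxt and Fezf1 to 0.93 for Avp and Trh), which in part restates the difference between the groups. Relative to control, 2 of 7 members, Avp and Trh, were called higher after CFA, against 4.89% of all genes, and 0 were called lower, against 7.06%. After formalin 0 of 7 members were called relative to control, against 0.300% of all genes in either direction, with 0 at an unadjusted p under 0.05 and 0 called by DESeq2 or by limma-voom. The median log2 fold change of the 7 members was −1.77 in formalin minus CFA, beside −0.01 for all genes tested. It was −0.44 in formalin minus control, beside −0.04, and 1.31 in CFA minus control, beside 0.01. The comparisons with control share the same 3 control libraries. In such bulk tissue, fewer cells that express a gene and less RNA per cell cannot be told apart.

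**Figure D1:**
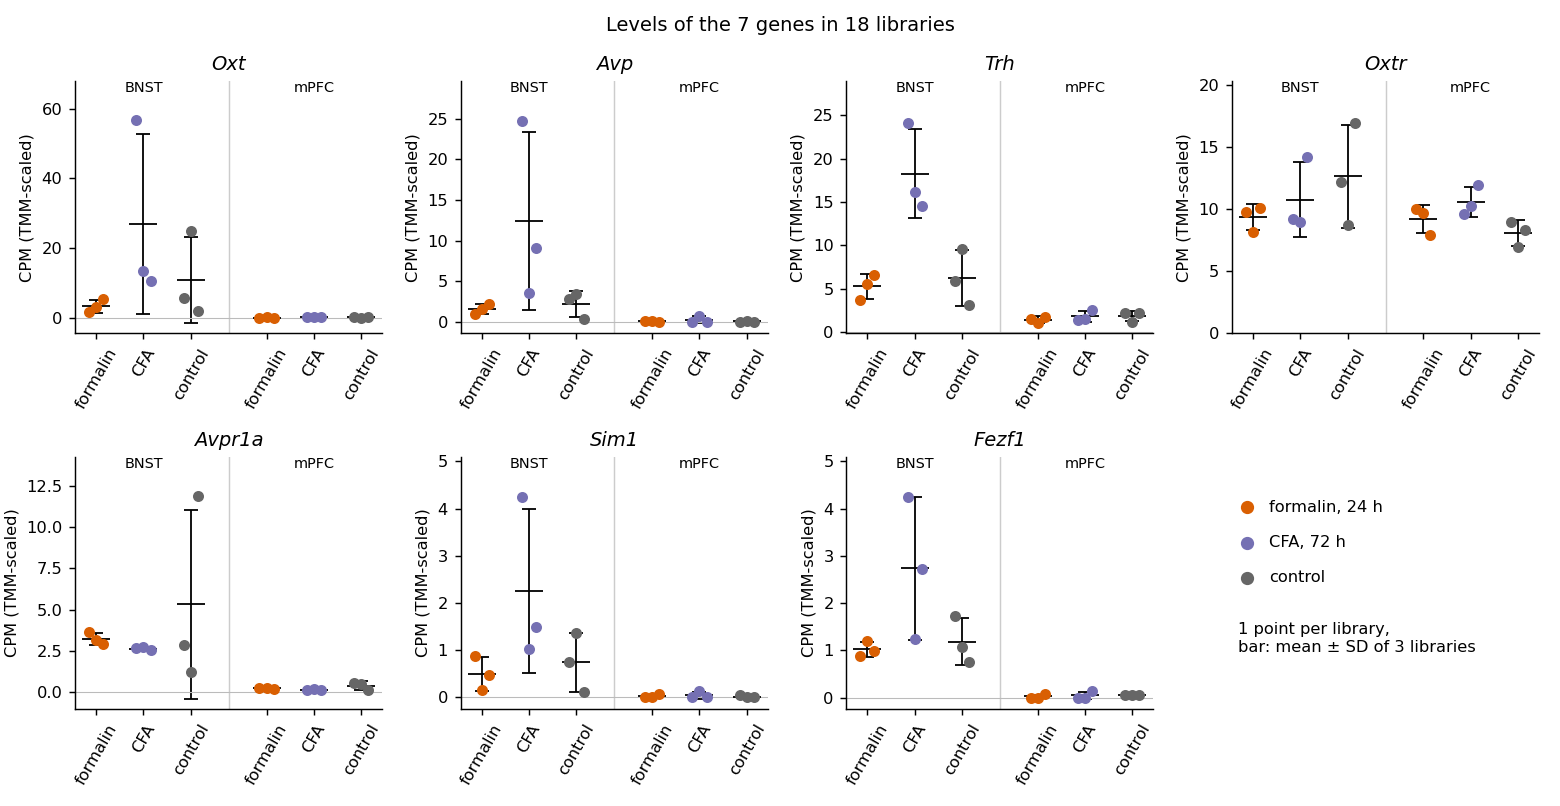
Level of each of the 7 genes in CPM (y axis, linear) in the formalin, CFA and control libraries of the BNST (left of each panel) and of the mPFC (right). Each point is 1 library, and the bar gives the mean ± SD of 3 libraries. Oxt, Avp, Trh, Sim1 and Fezf1 reached their highest values in BNST CFA replicate 1, and Oxtr and Avpr1a in BNST control replicate 3.

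Oxt, the precursor of oxytocin, was at 1.59, 2.98 and 5.32 CPM in the formalin libraries of the BNST, at 56.6, 13.3 and 10.6 CPM in the CFA libraries, and at 5.5, 24.8 and 1.86 CPM in the control libraries (replicates 1, 2 and 3). All formalin libraries lay below all CFA libraries, while the control libraries spread 13.4-fold and overlapped both groups. Oxt was 7.97-fold lower after formalin than after CFA (log2 fold change −2.99 ± 0.85, adjusted p = 0.033). Relative to control, the log2 fold change was −1.68 ± 0.84 after formalin (adjusted p = 0.29) and 1.31 ± 0.78 after CFA (adjusted p = 0.25), neither past the threshold. The formalin minus CFA call was lost in 9 of 26 alternatives, among them without CFA replicate 1 (−1.82, adjusted p = 0.16), without formalin replicate 1 (−2.68, 0.12) or 2 (−2.92, 0.11) and without mPFC formalin replicate 2 (0.055), and it held within sequencing lane 2 (−2.65, 0.041). Without control replicate 2, the library with the most Oxt among controls, CFA minus control passed the test (2.86, adjusted p = 0.022), as it did within lane 2 (3.84, 0.03), and without CFA replicate 1 it was 0.15 (adjusted p = 0.91).

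Avp, the precursor of vasopressin, was at 1.0, 1.57 and 2.25 CPM after formalin, at 24.7, 3.6 and 9.06 CPM after CFA, and at 2.78, 3.46 and 0.371 CPM in control mice. All CFA libraries lay above all formalin and all control libraries, although CFA replicate 2 and control replicate 2 were close. Avp was 7.58-fold lower after formalin than after CFA (log2 fold change −2.92 ± 0.77, adjusted p = 0.022) and 5.59-fold higher after CFA than in control mice (2.48 ± 0.75, adjusted p = 0.030). Formalin and control libraries overlapped, with a log2 fold change of −0.44 ± 0.80 (adjusted p = 0.81). Leaving out CFA replicate 1 ended both calls, at −1.94 for formalin minus CFA (adjusted p = 0.12) and 1.52 for CFA minus control (0.15). The first call was also lost without formalin replicate 1 (0.089) or 2 (0.084) and within lane 2 (−2.66, 0.069), and the second without control replicate 1 (0.058) or 3 (1.99, 0.089) and with DESeq2 (0.063). Within lane 2, where control replicate 3 with the least Avp was the lone BNST control, CFA minus control was 5.04 (adjusted p = 0.032).

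The ratio of Oxt to Avp, each per length of transcript, was above 1 in all 9 BNST libraries. It was 1.71, 2.04 and 2.53 in the formalin libraries, 2.46, 3.97 and 1.26 in the CFA libraries, and 2.13, 7.72 and 5.37 in the control libraries. The groups overlapped in this ratio, with the highest values in control replicates 2 and 3.

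Trh, the precursor of thyrotropin-releasing hormone, was at 3.77, 5.58 and 6.55 CPM after formalin, at 24.1, 16.2 and 14.5 CPM after CFA, and at 5.93, 9.58 and 3.16 CPM in control mice. All CFA libraries lay above all others, and the formalin and control libraries overlapped. Trh was 3.41-fold lower after formalin than after CFA (log2 fold change −1.77 ± 0.34, adjusted p = 0.0035) and 2.92-fold higher after CFA than in control mice (1.54 ± 0.34, adjusted p = 0.0044). Formalin differed from control by −0.23 ± 0.35 (adjusted p = 0.76). The formalin minus CFA call was kept in all 26 alternatives, with log2 fold changes of −1.96 to −1.51 and adjusted p of 2.7e-05 to 0.048. The CFA minus control call was lost in 1 of 26, the fit of the 6 libraries compared (adjusted p = 0.077), and its log2 fold change was 2.52 (adjusted p = 0.00072) within lane 2, where control replicate 3 was the lone BNST control.

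**Figure D2:**
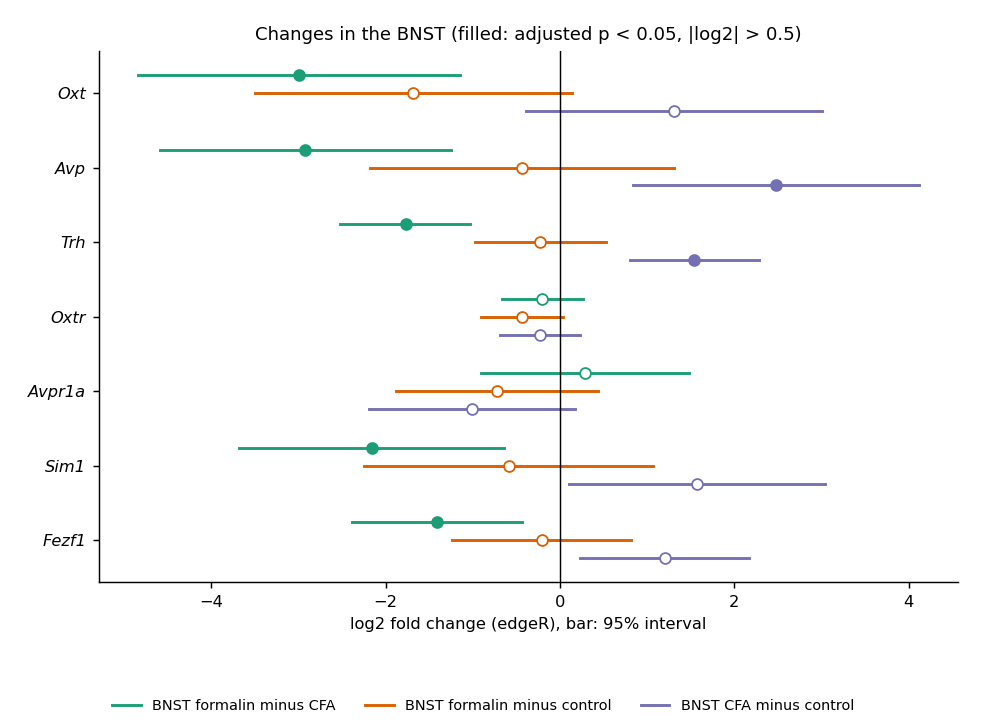
Log2 fold changes of the 7 genes in the BNST (x axis) for formalin minus CFA, formalin minus control and CFA minus control, with bars for the 95% interval from the edgeR fit and filled points for called genes. The 5 filled points of formalin minus CFA lie between −2.99 for Oxt and −1.41 for Fezf1, and the filled points of CFA minus control are Avp at 2.48 and Trh at 1.54.

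Oxtr, the receptor of oxytocin, was at 9.72, 8.13 and 10.1 CPM after formalin, at 9.16, 8.92 and 14.2 CPM after CFA, and at 12.2, 8.73 and 16.9 CPM in control mice. All groups overlapped. Formalin differed from CFA by a log2 fold change of −0.21 ± 0.21 (95% interval −0.67 to 0.26, adjusted p = 0.55). Relative to control, the values were −0.44 ± 0.21 after formalin (adjusted p = 0.27) and −0.23 ± 0.21 after CFA (adjusted p = 0.47).

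Avpr1a, the vasopressin receptor of brain and vessels, was at 3.65, 3.14 and 2.89 CPM after formalin, at 2.65, 2.71 and 2.54 CPM after CFA, and at 2.84, 1.25 and 11.9 CPM in control mice. Control replicate 3 stood far above the other 8 BNST libraries. The formalin libraries all lay above the CFA libraries by a small margin, with a log2 fold change of 0.29 ± 0.55 (95% interval −0.90 to 1.48, adjusted p = 0.77). Relative to control, the log2 fold change was −0.72 ± 0.53 after formalin (adjusted p = 0.49) and −1.01 ± 0.54 after CFA (adjusted p = 0.19). The sign of both turned without control replicate 3, to 0.66 (adjusted p = 0.29) and 0.37 (0.52). Within lane 2, where that library is the lone control, both were called (−1.95, adjusted p = 0.011, and −2.18, 0.00034), and without control replicate 2 CFA minus control was called as well (−1.48, 0.021).

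Sim1, the basic helix-loop-helix factor of paraventricular neurons, had few counts, with 15, 3 and 11 in the formalin libraries, 77, 21 and 32 in the CFA libraries, and 12, 24 and 2 in the control libraries. This corresponds to 0.884, 0.163 and 0.468 CPM after formalin, 4.25, 1.03 and 1.5 CPM after CFA, and 0.742, 1.36 and 0.124 CPM in control mice. The formalin libraries lay below the CFA libraries, and the control libraries overlapped both. Sim1 was 4.46-fold lower after formalin than after CFA (log2 fold change −2.16 ± 0.70, adjusted p = 0.046), a call that was lost in 21 of 26 alternatives (adjusted p of 0.014 to 0.27). Without CFA replicate 1 the value was −1.33 (adjusted p = 0.27), without formalin replicate 2 it was −1.75 (0.17), and DESeq2 gave 0.069. Relative to control, Sim1 had a log2 fold change of −0.59 ± 0.76 after formalin (adjusted p = 0.71) and of 1.57 ± 0.67 after CFA (adjusted p = 0.10). CFA minus control was called without control replicate 2 (2.36, adjusted p = 0.05) and within lane 2 (4.10, 0.025).

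Fezf1, the zinc-finger factor, was at 0.884, 1.19 and 0.978 CPM after formalin, at 4.25, 1.23 and 2.72 CPM after CFA, and at 1.73, 1.08 and 0.743 CPM in control mice. The formalin libraries lay below the CFA libraries, with formalin replicate 2 and CFA replicate 2 close together. Fezf1 was 2.66-fold lower after formalin than after CFA (log2 fold change −1.41 ± 0.45, adjusted p = 0.041). It differed from control by −0.21 ± 0.47 after formalin (adjusted p = 0.84) and by 1.2 ± 0.45 after CFA (adjusted p = 0.061). The formalin minus CFA call was lost in 11 of 26 alternatives, among them without CFA replicate 1 (−0.95, adjusted p = 0.23) or 3 (0.08), without formalin replicate 1 (0.12), 2 (0.09) or 3 (0.095), without mPFC control replicate 1 (0.051) or 2 (0.052) and within lane 2 (−1.3, 0.11). CFA minus control was called without control replicate 1 (1.57, adjusted p = 0.041) or CFA replicate 2 (1.55, 0.012).

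**Figure D3:**
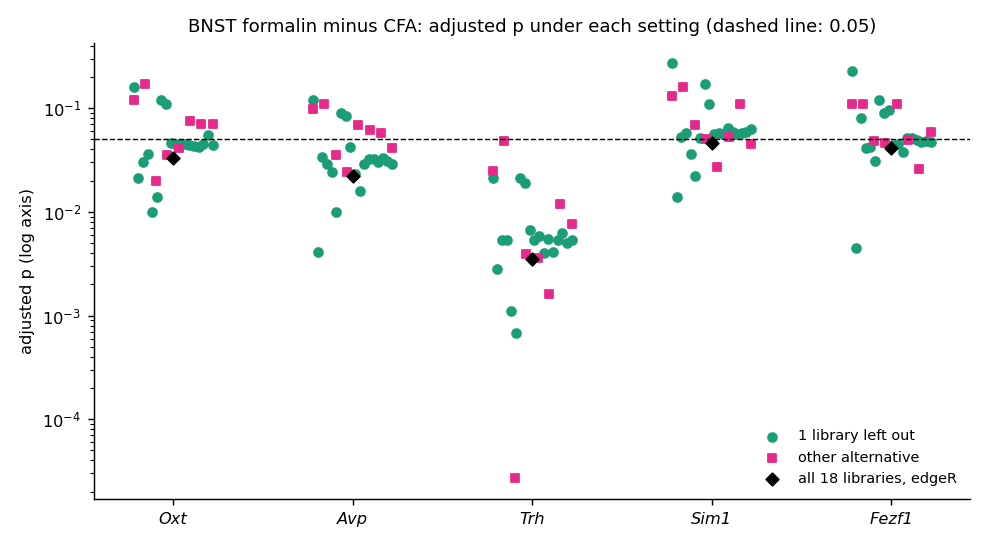
Adjusted p of the 5 called genes in BNST formalin minus CFA (y axis, log scale) with all 18 libraries in edgeR (diamonds), with 1 library left out (circles) and under the other alternatives (squares). All points of Trh lie under the dashed line at 0.05, with the highest at 0.048, whereas the points of Sim1 reach 0.27 and 21 of its 26 alternatives lie above the line.

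The members differed in how much they varied between libraries of a group. The biological coefficient of variation fitted by edgeR was 0.806 for Avp, 0.801 for Oxt, 0.639 for Sim1 and 0.499 for Avpr1a, against a median of 0.136 over all genes tested. Oxt and Avp were at the percentile 99.2 of all genes in this spread. Fezf1 had 0.362, Trh 0.297 and Oxtr 0.185. Of the 5 members called in formalin minus CFA of the BNST, Trh had the lowest value, and its call was the one kept in all 26 alternatives.

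In TPM, which set levels of genes side by side per length of transcript, Oxt was the most abundant member in every BNST group and Sim1 the least. Oxt averaged 25.8 TPM after formalin, 193 TPM after CFA and 83.7 TPM in control mice. Avp averaged 11.7 TPM after formalin, 84.1 TPM after CFA and 16 TPM in control mice. Trh averaged 16.1 TPM after formalin, 50.6 TPM after CFA and 19 TPM in control mice. The receptors were lower, with 8.16 TPM of Oxtr after formalin, 8.7 TPM after CFA and 11.4 TPM in control mice, and with 5.08 TPM of Avpr1a after formalin, 3.78 TPM after CFA and 8.77 TPM in control mice. Fezf1 averaged 1.77 TPM after formalin, 4.42 TPM after CFA and 2.08 TPM in control mice, and Sim1 0.246 TPM after formalin, 1.02 TPM after CFA and 0.36 TPM in control mice. For Oxt, Avp, Trh, Sim1 and Fezf1 the BNST groups were lowest after formalin, followed by control and then CFA, and the test called no difference between formalin and control for any of them, nor between control and CFA for Oxt, Sim1 and Fezf1.

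In the mPFC, Oxtr and Trh were the only members with more than 12 counts in any library. Oxtr was at 10, 9.69 and 7.94 CPM after formalin, at 9.57, 10.2 and 11.9 CPM after CFA, and at 8.98, 6.91 and 8.34 CPM in control mice. The CFA libraries all lay above the control libraries (log2 fold change 0.39 ± 0.22, adjusted p = 0.47), and the formalin libraries overlapped both. Trh was at 1.53, 1.03 and 1.78 CPM after formalin, at 1.42, 1.52 and 2.57 CPM after CFA, and at 2.21, 1.23 and 2.18 CPM in control mice, with overlap between all groups. Its log2 fold change was −0.33 ± 0.43 in formalin minus CFA (adjusted p = 0.79), −0.36 ± 0.42 in formalin minus control (0.79) and −0.03 ± 0.41 in CFA minus control (0.99).

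The other members were at or near the detection limit in the mPFC. Oxt had 0, 1 and 0 counts after formalin, 1, 2 and 1 after CFA, and 2, 0 and 3 in control mice. Avp had 2, 2 and 0 counts after formalin, 0, 12 and 1 after CFA, and 1, 2 and 1 in control mice. The 12 Avp counts in CFA replicate 2 (0.794 CPM) were the one value of these peptides above 3 counts. Avpr1a had 3 to 5 counts after formalin, 2 or 3 after CFA and 2 to 11 in control mice, and Sim1 and Fezf1 had at most 2 counts in any mPFC library. In each comparison of the mPFC 0 of 7 members were called by edgeR, by DESeq2 or by limma-voom, and 0 had an unadjusted p under 0.05. Oxt, Avp, Avpr1a, Sim1 and Fezf1 had passed the filter on low counts through their BNST libraries. With so few counts in the mPFC a call of these members was hardly possible, so the result rests on Oxtr and Trh. Of all genes, 0.269% were called in formalin minus control, 0.632% in CFA minus control and 0.932% in formalin minus CFA.

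All 7 members were higher in the BNST than in the mPFC of control mice, and 6 of 7 were higher in formalin and in CFA mice, with Oxtr as the exception. Of all genes tested, 18.8% were called higher in the BNST of formalin mice, 20.7% in that of CFA mice and 14.7% in that of control mice. Oxt, Avp, Avpr1a, Sim1 and Fezf1 passed the filter on low counts only through their BNST libraries. Their direction was thus largely set by the filter, and their calls are not read as support beside these shares. Over the 3 libraries of a group Oxt had 207 counts in the BNST and 1 in the mPFC after formalin, a scaled ratio of 180 with a 95% counting interval of 32 to 7160. It had 1522 and 4 counts after CFA (ratio 303, 118 to 1110) and 557 and 5 counts in control mice (ratio 128, 54.7 to 397). The intervals cover counting error only. Avp had ratios of 21.6 (8.16 to 80.7) after formalin, 43.8 (25.4 to 82.6) after CFA and 32.3 (12.3 to 121) in control mice. For both peptides the intervals of the 3 treatments overlapped. By the methods of the study both regions were dissected from every brain, and 8 pairs of libraries carry the same treatment and animal number. With that number as a block, 5 of 7 members were called in control mice, without Avp (log2 fold change 4.93, adjusted p = 0.10, against 4.87 and 0.0078 with no block) and Oxtr, and 6 of 7 in formalin and in CFA mice. The Avp call in control mice was also lost with limma-voom and within lane 2 (2.31), where control replicate 3 was the lone BNST control. The Oxt call was lost with limma-voom in formalin (adjusted p = 0.2), CFA (0.066) and control mice. Avp and Sim1 lost their calls in formalin mice with limma-voom as well. Within lane 2 the calls of Oxt, Trh and Sim1 in control mice were lost too.

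Trh stood closer to the mPFC. Its BNST over mPFC ratio was 3.73 (95% counting interval 2.89 to 4.86) after formalin, 9.82 (7.88 to 12.4) after CFA and 3.41 (2.73 to 4.28) in control mice, with edgeR log2 fold changes of 1.87 ± 0.39 (adjusted p = 0.00092), 3.31 ± 0.38 (2.4e-06) and 1.74 ± 0.38 (0.0015) for these treatments in turn. Avpr1a had ratios of 13.7 (7.63 to 26.9) after formalin, 17.9 (8.47 to 45.2) after CFA and 13.0 (8.50 to 20.9) in control mice. Sim1 and Fezf1 had 29 and 60 BNST counts after formalin, 130 and 160 after CFA, and 38 and 59 in control mice, against 1 to 3 counts per group in the mPFC.

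Oxtr was the member closest to equal levels in both regions. The log2 fold change of BNST minus mPFC was 0.01 ± 0.22 in formalin mice (95% interval −0.46 to 0.48, adjusted p = 0.97) and 0.03 ± 0.21 in CFA mice (−0.44 to 0.49, adjusted p = 0.92). In control mice it was 0.64 ± 0.22 (adjusted p = 0.024), although the libraries overlapped. That call was lost without BNST control replicate 3 (0.37, adjusted p = 0.17) or mPFC control replicate 2 (0.54, 0.10). With the animal number as a block it was 0.50 (0.17).

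**Figure D4:**
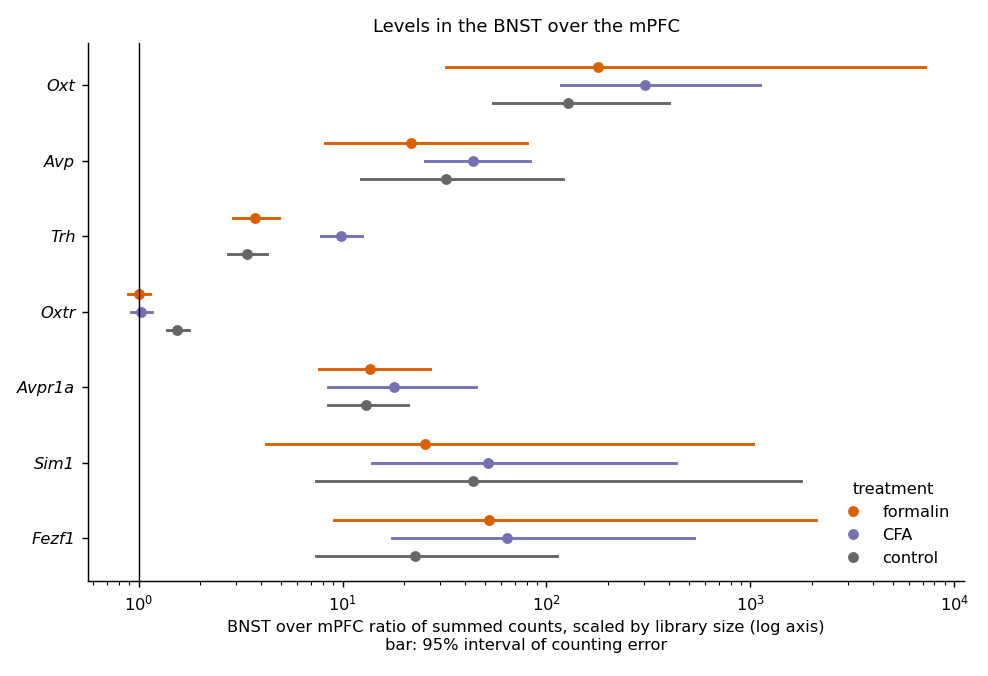
Ratio of BNST to mPFC level (x axis, log scale) from the summed counts of 3 libraries per group, scaled by library size, for formalin, CFA and control mice, with bars for the 95% interval of counting error. Oxt lies farthest from equality, at 128 to 303, Trh at 3.41 to 9.82, and Oxtr lies at 1 for formalin, 1.03 for CFA and 1.55 for control mice.

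Whether a change differed between the regions was tested as an interaction, and 0 of 7 members were called for formalin minus control, CFA minus control or formalin minus CFA. Of all genes, 0.158% were called for formalin minus control, 4.17% for CFA minus control and 4.17% for formalin minus CFA. At an unadjusted p under 0.05 there were 0 members for formalin minus control and 1, Trh, for each of the others. The CFA minus control change of Trh was higher in the BNST than in the mPFC by 1.57 ± 0.53 on the log2 scale (edgeR adjusted p = 0.11), and its formalin minus CFA change was lower by −1.44 ± 0.55 (adjusted p = 0.13). DESeq2 called 1 member, Trh, for CFA minus control (1.58, adjusted p = 0.039), limma-voom called 0, and both called 0 for the other interactions. Trh was also called by edgeR without BNST control replicate 2 (2.03, adjusted p = 0.026) and within lane 2 (2.56, 0.0055). Of Oxt, Avp, Sim1 and Fezf1, mPFC counts were too few to give a usable interaction at this depth.

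Among 24 other peptide genes of the hypothalamus, 15 could be tested. In the BNST 4 of 15 were lower and 1 was higher after formalin than after CFA, against 2.96% and 3.91% of all genes. The lower genes with the largest changes were Tac2, the precursor of neurokinin B (formalin 7.6 ± 1.79 CPM and CFA 36.7 ± 13.1 CPM, SD, log2 fold change −2.27 ± 0.27, adjusted p = 0.00015), and Adcyap1, the precursor of PACAP (formalin 7.81 ± 2.08 CPM and CFA 20.4 ± 4.17 CPM, −1.38 ± 0.27, 0.0049). The higher gene was Penk, the precursor of the enkephalins (formalin 287 ± 46 CPM and CFA 114 ± 32 CPM, 1.33 ± 0.22, 0.0016). Penk was thus the only one called higher, and the median of the 15 was −0.63 beside −0.01 for all genes. In CFA minus control 3 of 15 were higher and 3, Penk, Tac1 and Pdyn, were lower, against 4.89% and 7.06% of all genes. The striatal markers given below were likewise mostly higher in formalin minus CFA and lower in CFA minus control. Their part in these peptide changes was not tested. The largest were Penk (−1.93 ± 0.22, adjusted p = 4e-05), Adcyap1 (1.81 ± 0.28, 0.00046) and Tac2 (1.66 ± 0.27, 0.00043). In formalin minus control 0 of 15 were called by edgeR, 4 had an unadjusted p under 0.05, DESeq2 called 1 and limma-voom 0. Penk, the most abundant, averaged 287 ± 46 CPM after formalin and 435 ± 114 CPM in control mice (−0.60 ± 0.21, adjusted p = 0.16).

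Of 18 other hypothalamic transcription factors, 10 could be tested, and edgeR called 0 in each comparison of treatments in the BNST. DESeq2 called 1 in CFA minus control, 1 in formalin minus CFA and 0 in formalin minus control, limma-voom called 0 in each, and 1 or 2 had an unadjusted p under 0.05. Arnt2, the partner protein of Sim1 and the most abundant of the list, averaged 233 ± 15.3 CPM after formalin and 241 ± 9.56 CPM after CFA (log2 fold change −0.05 ± 0.07, adjusted p = 0.71). Otp, the homeobox factor of the same neurons and singled out here after its values were seen, averaged 1.41 ± 0.795 CPM after formalin and 3.44 ± 2.37 CPM after CFA (−1.25 ± 0.62, adjusted p = 0.18). In control mice 6 of 10 were higher in the BNST than in the mPFC, against 14.7% of all genes, and 1 was lower. The largest change was that of Six3 (41.8 ± 6.02 against 0.125 ± 0.113 CPM, 8.35 ± 0.42, adjusted p = 1.7e-09). Genes near 0 in the mPFC, such as Six3, passed the filter on low counts through the BNST.

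Of 8 genes that process and release these peptides, 1 was lower after formalin than after CFA, and 1 was higher after CFA than in control mice. This was Pcsk1, a convertase that cuts peptide precursors, at 37.3 ± 6.4 CPM after formalin, 56.4 ± 0.138 CPM after CFA and 31.7 ± 2.45 CPM in control mice (−0.60 ± 0.10, adjusted p = 0.0013 for formalin minus CFA, and 0.83 ± 0.10, 3.2e-05 for CFA minus control). Of all genes, 2.96% were called lower in formalin minus CFA and 4.89% higher in CFA minus control. The 1 call among 8 genes is not read as a result about the list. Of the peptidases that break such peptides down, 3 were analysed here and 0 were called between treatments of the BNST by edgeR, DESeq2 or limma-voom, with at most 1 at an unadjusted p under 0.05. Lnpep, the placental leucine aminopeptidase that cleaves oxytocin and vasopressin, averaged 160 ± 15.7 CPM after formalin and 170 ± 4.68 CPM after CFA (−0.08 ± 0.08, adjusted p = 0.49).

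Of the 4 other receptors of the peptides, 2 could be tested, both for thyrotropin-releasing hormone. Trhr was lower after formalin than after CFA (formalin 6.02 ± 1.93 CPM and CFA 11 ± 2.26 CPM, log2 fold change −0.86 ± 0.24, adjusted p = 0.022), and was not called in CFA minus control (0.40 ± 0.24, 0.23). Of 12 genes of Gq signalling, through which Oxtr and Avpr1a act, 1 was higher and 1 was lower in formalin minus CFA, and 1 was higher and 4 were lower in CFA minus control. Of all genes, 3.91% were called higher and 2.96% lower in formalin minus CFA, and 4.89% higher and 7.06% lower in CFA minus control. Prkcb, a protein kinase C, averaged 291 ± 43.5 CPM after formalin, 174 ± 5.79 CPM after CFA and 375 ± 18.5 CPM in control mice (0.74 ± 0.11, adjusted p = 0.00044 for formalin minus CFA, and −1.11 ± 0.11, 2.9e-06 for CFA minus control). Plcb4, a phospholipase C, moved the other way, at 96.2 ± 14.7 CPM after formalin, 188 ± 39.8 CPM after CFA and 108 ± 9.26 CPM in control mice (−0.96 ± 0.13, 0.00031, and 0.80 ± 0.13, 0.00045). Plcb1, another phospholipase C, was lower after CFA (118 ± 10.4 CPM) than in control mice (218 ± 16.4 CPM, −0.89 ± 0.13, 0.00017). In formalin minus control 0 genes of the processing, breakdown, receptor and Gq lists were called by edgeR, DESeq2 or limma-voom, with 1, 1, 0 and 5 at an unadjusted p under 0.05. Of all genes 0.300% were called by edgeR in this comparison, and the share at that unadjusted p is not given here.

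Across the 9 BNST libraries the members did not vary alone. CFA replicate 1 was the highest of the 9 libraries in 5 members, and control replicate 3 was the lowest in 4 (Avp, Trh, Sim1 and Fezf1) and the highest in Oxtr and Avpr1a. Markers of the thalamus, which lies behind the BNST, summed to 320 to 434 CPM after formalin, 566 to 982 CPM after CFA and 273 to 622 CPM in control mice, with the lowest sum in control replicate 3. Of these 5 markers 2 were lower in formalin minus CFA and 2 were higher in CFA minus control, against 2.96% and 4.89% of all genes. Markers of the habenula summed to 14.9 to 25.5 CPM after formalin, 60.3 to 117 CPM after CFA and 13.7 to 35.5 CPM in control mice. This sum is not specific to the habenula, since it was 76.9 to 120 CPM in the mPFC libraries. Most of it was Nwd2, with means of 101, 82.4 and 91 CPM in the mPFC after formalin, after CFA and in control mice. In the BNST Nwd2 averaged 14.3, 50.1 and 13.7 CPM in the same order. Of the 6 habenular markers 5 were lower in formalin minus CFA and 5 were higher in CFA minus control, against the same shares of all genes. Pou4f1 and Chrnb3 were at 0 in control replicates 1 and 3. The habenular sum did not overlap between CFA and the other groups, as for Avp and Trh, and the thalamic sum of CFA overlapped that of control mice. The part of these markers in the results was not tested.

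Other marker lists moved in other ways. Striatal markers summed to 1140 to 1620 CPM after formalin, 236 to 592 CPM after CFA and 1310 to 3270 CPM in control mice. In formalin minus CFA 7 of 8 were higher, against 3.91% of all genes, whereas in CFA minus control 8 of 8 were lower, against 7.06%. Choroid plexus markers summed to 2940 to 8870 CPM after formalin, 178 to 17800 CPM after CFA and 35.0 to 746 CPM in control mice. CFA replicate 2 held the highest sum and had the least Avp, Sim1 and Fezf1 among the CFA libraries. Oxt and Trh were lowest among them in CFA replicate 3, which held the lowest sum of the CFA libraries (178 CPM). Ependymal markers summed to 163 to 167 CPM after formalin, 85.7 to 173 CPM after CFA and 58.3 to 114 CPM in control mice. Cortical pyramidal markers summed to 75.5 to 498 CPM after formalin, 112 to 140 CPM after CFA and 27.4 to 155 CPM in control mice. The 8 markers of BNST and GABAergic neurons summed to 1370 to 1540 CPM after formalin, 1450 to 1800 CPM after CFA and 1260 to 2160 CPM in control mice. Of these 8, 1 was lower in formalin minus CFA, against 2.96% of all genes. It was Esr1, an estrogen receptor of BNST neurons, at 5.3 ± 1.08 CPM after formalin and 8.36 ± 0.398 CPM after CFA (log2 fold change −0.65 ± 0.16, adjusted p = 0.012), the same direction as the 5 members. In CFA minus control 0 of the 8 were called by edgeR, DESeq2 or limma-voom, with 1 at an unadjusted p under 0.05. Esr1 was not called between the BNST and the mPFC of control mice (0.20 ± 0.16, edgeR adjusted p = 0.34). The part of these marker lists was not tested either.

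**Figure D5:**
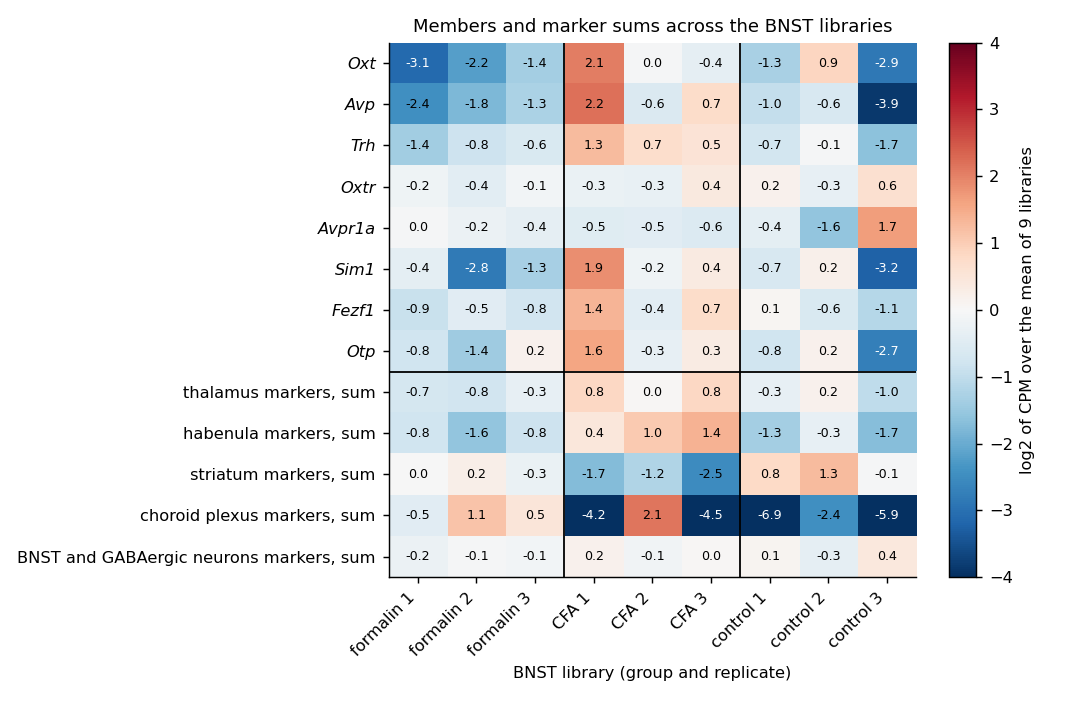
Level of the 7 genes, of Otp and of 5 summed marker lists in each of the 9 BNST libraries, as the log2 of CPM over the mean of the 9 libraries (numbers and colours, which are cut at −4 and 4). Columns are the formalin, CFA and control libraries. Oxt, Avp, Trh, Sim1, Fezf1 and Otp are highest in CFA replicate 1, Avp is lowest in control replicate 3 at −3.87, and the thalamic sum is also lowest there at −1.01.

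The genes whose log2 CPM followed the members most closely over the 9 BNST libraries were taken from 15920 genes with a mean of at least 1 CPM, and are given as a description. The libraries share 3 treatments and the marker differences given above. For Oxt they were Dmap1, Elp5, Gm6055, Rnf6 and Map3k14 (Pearson r of 0.94 to 0.96). For Avp they were Fign, Sptssb, Ptges2, Fhdc1 and Chml (0.963 to 0.98). For Trh they were Lamtor5, Ubqln1, Adamts19, Txnl4a and Cgrrf1 (0.963 to 0.975). For Sim1 they were Rsl24d1, Ppp1cb, Ppp2ca, Tmem70 and Nkiras1 (0.954 to 0.969), and for Fezf1 they included Fign, Chchd4, Pus1 and Zbtb38 (0.944 to 0.958). Fign, which encodes a protein that severs microtubules, was on the lists of both Avp and Fezf1.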

How the data were processed

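RNA-seq libraries of the BNST and prelimbic mPFC of 18 samples in 6 groups of 3 were analysed from the deposited table of raw counts per gene. The authors trimmed paired-end reads with Trimmomatic 0.39, used HISAT2 2.2.1 for alignment to GRCm38, SAMtools for sorting and featureCounts 2.0.1 for counting. The strand setting of the counting is not given in the sources used here. Symbols, positions and exon lengths came from GENCODE M21, and 1052 of 55401 identifiers were left without a symbol.

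The main tests used edgeR 4.0.16 in R 4.3.3. Its filterByExpr (minimum count 10, minimum total 15) kept 18994 genes with 99.88% of the counts, TMM gave the scaling, and all 6 groups entered 1 robust quasi-likelihood fit, with 12 residual degrees of freedom. Adjusted p-values (Benjamini-Hochberg) run over all genes tested. The model was tested on simulated data. TPM used the union of exons, and log2 CPM a prior count of 2. Libraries of a group differed by more than sampling noise (chi-square of 3.55 to 70 per degree of freedom). Intervals of count ratios are exact binomial at the 95% level.

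The members, lists and tests were chosen with earlier results of these data known. Named were the 7 members, up to 3 called genes of each list with the largest change or, with 0 called, the most abundant, and the 5 genes most like each of 5 members, of which 1 is not reported here. Of 127 list entries, 3 were not analysed here. Alternatives were DESeq2 1.42.0, voom of limma 3.58.1, RLE scaling, no filter on low counts, the 9 libraries of a region, the 6 libraries compared, the libraries of lane 2, the replicate number and the animal number as a block, and leaving out each library. The tags for lane and animal stand in column names of supplementary tables, matched to libraries by identical counts. Lane 1 held replicates 1 and 2 of BNST control, lane 3 held BNST formalin replicate 1, and lane 2 held the rest.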

Additional observations from a re-analysis of the deposited data

How the results depend on the processing

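Counts of called members were recomputed under up to 26 alternatives. In BNST formalin minus CFA, 5 members became 2 with limma-voom or without a filter on low counts, 1 with either the 9 libraries of 1 region or the 6 compared, 3 within lane 2 and 3 with the replicate block. With DESeq2 or RLE scaling that comparison lost the call of Sim1 only. In BNST CFA minus control, 2 became 1 with DESeq2, limma-voom or the 9 libraries and 0 with the 6. Within lane 2 the lone BNST control is assumed to vary like the other groups. There, CFA minus control was 3.84 for Oxt and 4.1 for Sim1 but −2.18 for Avpr1a, and formalin minus control was −1.95 for Avpr1a. Oxt, Avp, Trh and Sim1 lost their calls in control BNST minus mPFC within lane 2. The region difference of CFA minus control was −1.03 for Oxtr and 2.56 for Trh within lane 2, and DESeq2 called 1 member in it. Control BNST minus mPFC was 4 with the 6 libraries compared, where the call of Oxtr was lost and Avp and Sim1 did not pass the filter on low counts and were not tested, and formalin BNST minus mPFC was 3 with limma-voom. With 1 library left out the counts were 1 to 5 in BNST formalin minus CFA (1 without formalin replicate 1 or 2 or CFA replicate 1), 1 to 5 in BNST CFA minus control (5 without control replicate 2, 1 without control replicate 3 or CFA replicate 1), 6 to 7 in control and 4 to 6 in formalin BNST minus mPFC, and 0 to 1 in the region difference of CFA minus control. The 5 members called in BNST CFA minus control without control replicate 2 included Avpr1a, which was lower (−1.48). The cause of these changes in the counts was not tested.

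The signs that turned belong to values that were not called. Within lane 2, BNST formalin minus control became 1.19 for Oxt, 2.38 for Avp, 0.97 for Trh, 1.37 for Sim1 and 0.56 for Fezf1, and the region differences of Avpr1a became −0.78 for CFA and −1.21 for formalin minus control. Replicate numbers share only a number: residuals of same-numbered libraries correlated by −0.19 to 0.31, above 0.1 in 4 of 18 pairs. The replicate block turned Oxtr in formalin BNST minus mPFC to −0.01. It changed the calls of Oxt (−2.72, adjusted p = 0.071) and Fezf1 (−1.3, 0.059) in BNST formalin minus CFA, and no other call of a member. With 1 library left out, BNST formalin minus control ran over −0.93 to 0.05 for Avp, −0.54 to 0.23 for Trh, −1.18 to 0.20 for Sim1, −0.46 to 0.16 for Fezf1 and −1.19 to 0.66 for Avpr1a, and BNST CFA minus control over −1.48 to 0.37 for Avpr1a and −0.48 to 0.04 for Oxtr. Oxtr ran over −0.33 to 0.04 in BNST formalin minus CFA, −0.22 to 0.15 in CFA and −0.08 to 0.10 in formalin BNST minus mPFC, and −0.14 to 0.23 in the region difference of formalin minus CFA. Avpr1a ran over −0.09 to 1.76 in the region difference of CFA and −0.44 to 1.41 in that of formalin minus control, and Trh over −0.35 to 0.14 in mPFC CFA minus control and −0.18 to 0.59 in the region difference of formalin minus control. Few counts limit what can be seen, with 2 to 77 per BNST library for Sim1, 12 to 77 for Fezf1, and values near 0 in the mPFC.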
